A study of Homo sapiens with 4 samples.

Results

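The mitosis and cytokinesis genes are 55 genes chosen by symbol from a list of mitotic regulators, motors, chromosome proteins and cytokinesis factors. All 55 symbols matched 1 of the 25798 gene IDs in the deposited count table. The genes of the spindle checkpoint (TTK, BUB1, BUB1B, BUB3, MAD1L1, MAD2L1, KNL1, NDC80 and ZWINT) were left out by the rule. They were read in 4 libraries of total RNA from SW1990, an established human pancreatic cancer line labelled as wild type. Cells of 2 libraries were exposed to 100 nM erianin, a plant bibenzyl that binds tubulin, for 48 h, and cells of the other 2 libraries to DMSO, its solvent, for the same time. The labels name no separate cultures, so each p-value covers only the spread between these libraries.

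Entry into mitosis is driven by CDK1 bound to cyclin B, which the CDC25 phosphatases switch on. PLK1 and the Aurora kinases then direct the building of the spindle, kinesin motors and microtubule-binding proteins shape it, and condensin and topoisomerase II compact and untangle the chromosomes. The anaphase-promoting complex, with CDC20, destroys securin and cyclin B so that the sister chromatids part, and the centralspindlin proteins, ECT2 and anillin divide the cell. Most of these genes are transcribed in G2 and M phase through promoters with CCAAT boxes, bound by NF-Y, and a cell cycle homology region, bound by the DREAM and MYBL2 complexes, with FOXM1 recruited alongside. Drugs that bind tubulin are known to hold cells in mitosis, where these transcripts are usually abundant.

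The promoters show a sequence feature that the members share and that the choice of genes did not use. RefSeq promoters on GRCh38.p14, each 300 bases long from 250 before to 50 after the start, were found for 49 of the 55 members. Members and tested genes were counted as having a motif when any of their promoters held it. The CCAAT box, searched as CCAAT on either strand, was in 39 of the 49, or 79.6%. It was in 34.6% of all 35116 promoters in the table and 42.4% of the tested genes with a promoter there. The cell cycle homology region, searched as TTTGAA or TTCGAA on either strand, was in 37 of the 49, or 75.5%. It was in 16.4% of all promoters and 15.4% of those tested genes. Both motifs were in 32 of the 49, or 65.3%, against 6.38% of all promoters, and against 6.44% of the 11610 tested genes with a promoter in the table. An E2F motif, TTCCCGC or TTGGCGC, was in 20.4% of the members, 9.23% of all promoters and 17.1% of the tested genes. A forkhead motif, TGTTTA, was in 6.12% of the members, 12.3% of all promoters and 10.3% of the tested genes. A match to so few letters is a description of the window and does not show that a factor binds there. The 4 sequences below are the 250 bases before the start of the first 4 members in order of p, among those described in detail, with both motifs in the window. Capitals mark CCAAT and cell cycle homology matches, on the strand of the gene or its complement.
TOP2A, chr17:40417897-40418146, minus strand: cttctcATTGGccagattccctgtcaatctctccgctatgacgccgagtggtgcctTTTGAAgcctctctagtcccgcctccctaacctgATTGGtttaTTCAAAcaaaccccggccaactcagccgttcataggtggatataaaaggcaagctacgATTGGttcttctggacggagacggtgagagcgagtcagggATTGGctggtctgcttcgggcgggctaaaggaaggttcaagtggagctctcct
CENPF, chr1:214602945-214603194, plus strand: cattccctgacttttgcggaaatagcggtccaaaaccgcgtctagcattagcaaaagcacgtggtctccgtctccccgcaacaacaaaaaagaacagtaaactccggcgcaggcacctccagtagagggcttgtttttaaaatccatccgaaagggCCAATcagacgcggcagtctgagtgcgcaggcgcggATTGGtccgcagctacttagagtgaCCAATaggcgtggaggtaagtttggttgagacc
KIF4A, chrX:70289854-70290103, plus strand: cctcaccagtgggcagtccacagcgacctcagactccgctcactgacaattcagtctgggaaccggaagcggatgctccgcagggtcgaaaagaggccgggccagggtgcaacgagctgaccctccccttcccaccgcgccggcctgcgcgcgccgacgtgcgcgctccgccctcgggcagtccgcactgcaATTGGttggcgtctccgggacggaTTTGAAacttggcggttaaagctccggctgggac
CKAP5, chr11:46846281-46846530, minus strand: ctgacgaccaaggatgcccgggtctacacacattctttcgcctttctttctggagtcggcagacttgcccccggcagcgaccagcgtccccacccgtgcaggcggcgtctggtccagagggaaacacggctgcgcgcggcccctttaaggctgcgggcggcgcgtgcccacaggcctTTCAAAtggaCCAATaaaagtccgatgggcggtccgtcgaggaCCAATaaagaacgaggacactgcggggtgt
In KIF4A the CCAAT match began 58 bases before the start and the cell cycle homology match 34 bases before it. CKAP5 held a cell cycle homology match 73 bases before the start and CCAAT matches 63 and 30 bases before it, and another cell cycle homology match at base 18 after the start, outside the printed part. TOP2A held 4 CCAAT matches and 2 cell cycle homology matches in the printed part. In CENPF the CCAAT matches began 94, 58 and 33 bases before the start, and another CCAAT match and the cell cycle homology match lay at bases 13 and 41 after it, outside the printed part. The median log2 fold change was -0.20 in the 32 members with both motifs and -0.23 in the 17 others.

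The libraries held from 59923935 to 63336545 counts. Epithelial markers (EPCAM, CDH1, ELF3, keratins and claudins) summed to between 12258 and 15061 CPM (counts scaled to a common library size), and none of the 9 was at 0. Fibroblast markers summed to 39.1 CPM in DMSO replicate 1 and to between 11.4 and 14.3 CPM in the other libraries, and blood and endothelial markers to at most 1.30 CPM each. Exons of 22 members overlap those of another gene, in 20 of them on the opposite strand only. The strand setting of the counting is not given in the sources used here, so reads of such pairs cannot be told apart. For 13 members at least 200 bases of the longest transcript match another gene at 95% identity or more.

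The levels per length in the DMSO libraries spanned 707-fold. FPKM (fragments scaled by transcript length and library size) was used here, since CPM does not compare genes of different length. UBE2C, the ubiquitin-conjugating enzyme of the anaphase-promoting complex, was highest at 212 FPKM ± 0.219, followed by PTTG1 (securin) at 191 FPKM ± 20.2 and CDC20 at 181 FPKM ± 6.84 (SD, n = 2 each). MYBL2 at 121 FPKM ± 2.09 and PLK1 at 111 FPKM ± 21.9 came next (SD, n = 2 each). At the other end were KIF14 at 0.495 FPKM ± 0.0354, the kinetochore motor CENPE at 0.480 FPKM ± 0.0990 and the spindle motor KIF15 at 0.300 FPKM ± 0.0141 (SD, n = 2 each). In all, 21 members reached 10 FPKM and 6 lay under 1 FPKM. Of the 54 neighbouring pairs in this order, 30 had DMSO values that overlapped, among them PTTG1 with CDC20 and MYBL2 with PLK1. The level of a member went with its base composition: the Spearman correlation of GC content with DMSO FPKM was 0.75 across the 55 members, which share libraries and depth.

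**Figure D1:**
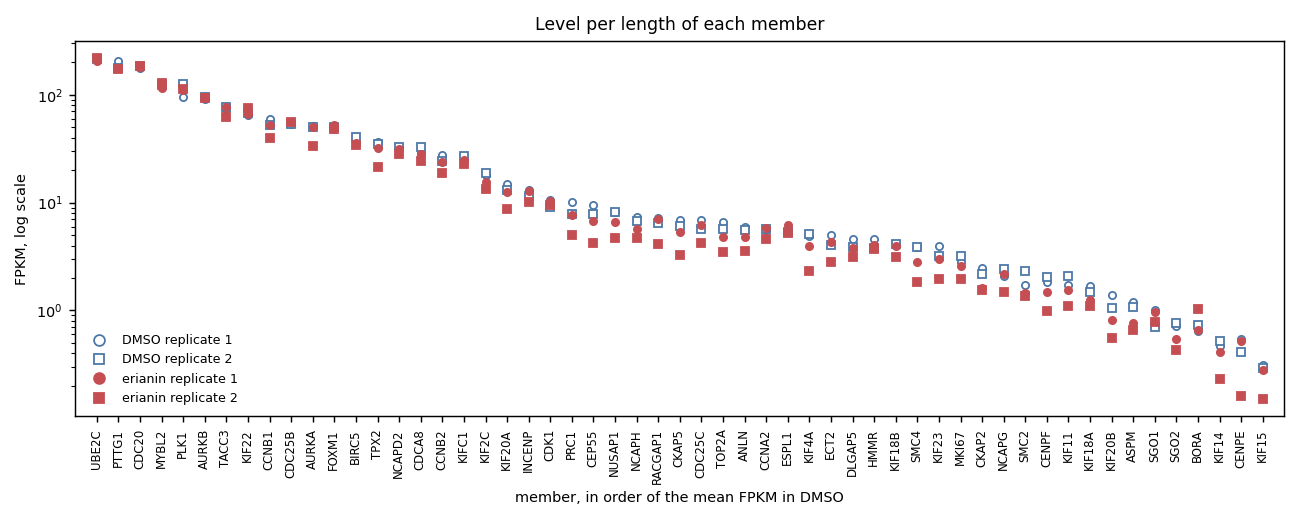
FPKM (log axis) of the 55 members in each of the 4 libraries, in order of the mean FPKM in DMSO; open blue symbols are DMSO and filled red symbols erianin, circles replicate 1 and squares replicate 2. UBE2C, PTTG1 and CDC20 stand at the top near 200 FPKM, and the square of erianin replicate 2 is lowest for KIF14, CENPE and KIF15 and highest for BORA.

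The comparison of erianin with DMSO asks whether the transcripts of dividing cells differ after the compound. No member passed it: 0 of 55 had an adjusted p under 0.05 in edgeR's quasi-likelihood test, where 0.041% of the 17090 genes tested did. All 55 had passed the filter on low counts, and the lowest count of any was 45, for KIF15 in erianin replicate 2. Adjusted p ran from 0.575 to 0.997 over the members. At an unadjusted p under 0.05 the members numbered 11 lower in erianin, or 20% of 55, against 5.89% of all genes, and 0 higher, against 2.21%. DESeq2 and limma-voom also passed 0 members. The log2 fold change, erianin over DMSO, was below 0 for 44 of 55 members, or 80%, against 51.3% of all genes, and its median was -0.20 against -0.01. Both erianin libraries lay below both DMSO libraries for 24 members, or 43.6%, against 24.4% of all genes, and above both for 6 members, or 10.9%, against 21.7%. In RNA from whole cultures, fewer cells in G2 and M phase and less of each RNA per cell cannot be told apart.

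**Figure D2:**
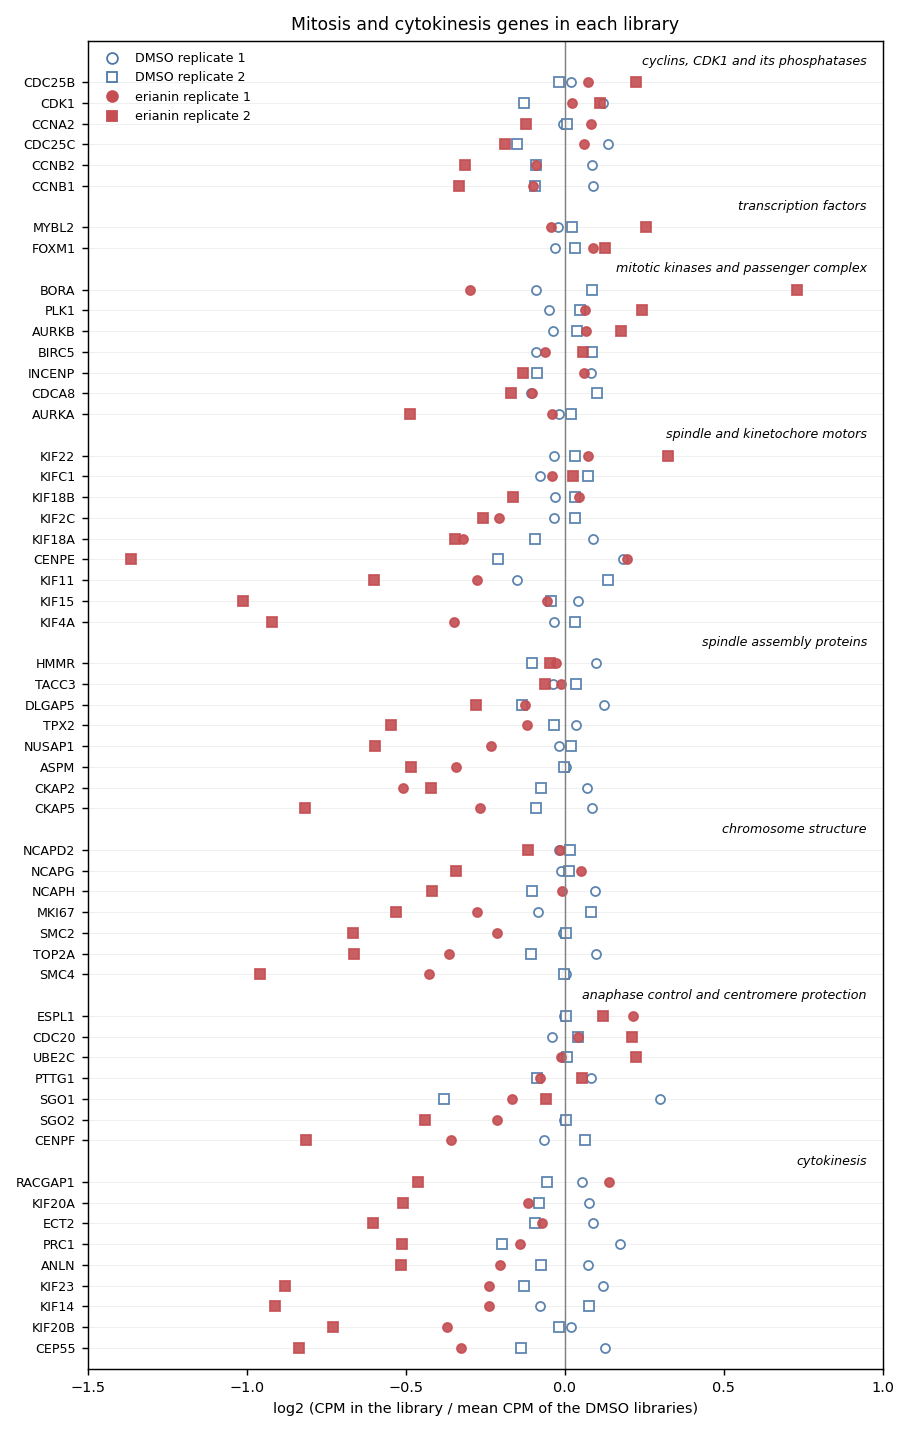
Each member's CPM in each library relative to the mean CPM of the DMSO libraries (log2 axis, 0 is the DMSO mean), grouped by role and ordered by fold change within a role. Filled red squares (erianin replicate 2) lie farthest left for most motors, spindle proteins, chromosome proteins and cytokinesis genes, and to the right of 0 for PLK1, AURKB, KIF22, CDC20, UBE2C, FOXM1 and MYBL2.

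The proteins of chromosome structure had the lowest median of the role groups, -0.40 over 7 members, all 7 below 0 and 4 lower without overlap between groups, where 24.4% of all genes were. After correction for GC content and transcript length, described further on, the median was -0.15, with 6 of 7 below 0. SMC4, the ATPase subunit of condensin (chromosome 3, 160399274 to 160434962, plus strand, GRCh38), was at 21.6 and 21.6 CPM in the DMSO libraries (replicate 1 first, here and below), against 16.0 and 11.1 CPM in the erianin libraries. Both erianin values were lower, that of replicate 2 by more. Its log2 fold change was -0.67 ± 0.20 (SE), the lowest of the 55, with an adjusted p of 0.575. TOP2A, which encodes topoisomerase II alpha (chromosome 17, 40388516 to 40417950, minus strand), read 42.0 and 36.4 CPM in DMSO, against 30.4 and 24.7 CPM in erianin, with no overlap. MKI67, the gene of the Ki-67 protein that coats mitotic chromosomes and marks proliferating cells, was at 39.7 and 44.6 CPM in DMSO, against 34.8 and 29.1 CPM in erianin, a log2 fold change of -0.40 ± 0.14 (SE). The other 4 (SMC2, NCAPH, NCAPG and NCAPD2, all of condensin) ranged from -0.42 to -0.06. SMC4 shares 1306 bases with TRIM59 on the opposite strand, which read 193 and 236 counts in DMSO, against 11 and 187 in erianin, so the count of SMC4 is uncertain.

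Spindle assembly proteins had a median of -0.36, with 8 of 8 members below 0 and 5 lower without overlap (24.4% of all genes). After the same correction it was -0.19, with 6 of 8 below 0. CKAP5, a microtubule polymerase also called chTOG (chromosome 11, 46743048 to 46846308, minus strand), was at 54.9 and 48.6 CPM in DMSO, against 43.0 and 29.3 CPM in erianin. CKAP2, a spindle-associated protein, stood at 9.76 and 8.83 CPM in DMSO, against 6.53 and 6.95 CPM in erianin, and here replicate 1 was the lower of the erianin libraries. ASPM, which focuses spindle poles, had 11.6 CPM in each DMSO library, against 9.14 and 8.28 CPM in erianin; its largest single row, 66.0% of its counts, gave a log2 fold change of 0.72. The groups did not overlap for any of these genes, and their log2 fold changes were -0.52 ± 0.18, -0.46 ± 0.18 and -0.41 ± 0.17 (SE). The other 5 ran from -0.40 for NUSAP1 to -0.04 for HMMR, the hyaluronan-mediated motility receptor of the spindle. NUSAP1 overlaps AC087721.2 on the same strand; the sum of both had a log2 fold change of -0.34 ± 0.17 (SE).

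Motors of the spindle and kinetochore had a median of -0.33, with 8 of 9 members below 0 and 5 of them without overlap (24.4% of all genes), and a median of -0.15 after the correction, again with 8 of 9. KIF4A, a chromosome-arm kinesin (chromosome X, 70290090 to 70420832, plus strand), was at 24.1 and 25.2 CPM in DMSO, against 19.4 and 13.0 CPM in erianin, a log2 fold change of -0.61 ± 0.20 (SE). KIF11, the Eg5 motor that pushes the spindle poles apart, had 9.68 and 11.8 CPM in DMSO, against 8.87 and 7.09 CPM in erianin. KIF2C, which depolymerises microtubules at centromeres, had 56.1 and 58.7 CPM in DMSO, against 49.7 and 48.0 CPM in erianin. All 3 lay lower in both erianin libraries, and for KIF2C these libraries nearly coincided. KIF22, a chromosome-binding kinesin, went the other way as counted, from 159 and 166 CPM to 171 and 203 CPM. Its log2 fold change of 0.20 ± 0.11 (SE) was 0.04 ± 0.07 (SE) after the correction. CENPE was uneven, at 5.15 and 3.93 CPM in DMSO, against 5.20 and 1.76 CPM in erianin, so erianin replicate 1 was the highest library and replicate 2 the lowest.

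Cytokinesis genes had a median of -0.35, with 9 of 9 members below 0 and 6 lower without overlap (24.4% of all genes). After the correction it was -0.24, with 8 of 9 below 0. CEP55, which recruits the abscission machinery to the midbody (chromosome 10, 93496632 to 93529092, plus strand), was at 27.8 and 23.2 CPM in DMSO, against 20.3 and 14.3 CPM in erianin, a log2 fold change of -0.56 ± 0.20 (SE). KIF20B, a midbody kinesin, had 7.71 and 7.52 CPM in DMSO, against 5.89 and 4.59 CPM in erianin; its largest single row, 42.5% of its counts, gave a log2 fold change of 2.74. KIF23, the motor subunit of centralspindlin, had 15.0 and 12.6 CPM in DMSO, against 11.7 and 7.50 CPM in erianin. In each of the 3 the groups did not overlap and erianin replicate 2 was lowest. The other 6 ran from -0.53 for KIF14 to -0.13 for RACGAP1, the partner of KIF23. PRC1, which bundles midzone microtubules, overlaps AC068831.7 on the same strand, which was at 4.33 and 14.9 CPM in DMSO, against 11.5 and 4.79 CPM in erianin, while PRC1 alone was at 35.4 and 27.3 CPM, against 28.4 and 22.0 CPM. The sum of the pair was at 39.7 and 42.2 CPM in DMSO, against 39.9 and 26.8 CPM in erianin. The groups overlapped both for PRC1 alone and for the sum, with log2 fold changes of -0.32 and -0.30.

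Cyclins, CDK1 and the CDC25 phosphatases had a median of -0.04, with 4 of 6 members below 0. CCNB1, cyclin B1 (chromosome 5, 69167010 to 69178245, plus strand), was at 134 and 118 CPM in DMSO, against 118 and 100.2 CPM in erianin, a log2 fold change of -0.21 ± 0.12 (SE), and erianin replicate 1 lay just below DMSO replicate 2. CCNB2, cyclin B2, had 46.6 and 41.1 CPM in DMSO, against 41.2 and 35.2 CPM in erianin, with overlap. CDK1 itself (chromosome 10, 60778331 to 60794852, plus strand) was at 22.7 and 19.1 CPM in DMSO, against 21.2 and 22.6 CPM in erianin. The groups overlapped, and its log2 fold change of 0.07 ± 0.15 (SE) was -0.04 when libraries were scaled by their totals alone. CDC25B, the phosphatase that starts CDK1 activation, had 187 and 182 CPM in DMSO, against 194 and 216 CPM in erianin. Its log2 fold change of 0.15 ± 0.10 (SE) was 0.02 after the correction. CCNA2 and CDC25C were at -0.02 and -0.06.

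The 2 transcription factors of this programme had log2 fold changes above 0, with a median of 0.11 that was -0.02 after the correction. FOXM1 (chromosome 12, 2857681 to 2877155, minus strand) was at 188 and 197 CPM in DMSO, against 205 and 210.0 CPM in erianin. The groups did not overlap, where 21.7% of all genes lay higher without overlap. Its log2 fold change was 0.11 ± 0.09 (SE), which was 0.02 after the correction and -0.67 in its largest single row. MYBL2, or B-MYB, was at 359 and 369.7 CPM in DMSO, against 354 and 435 CPM in erianin, with overlap and a log2 fold change of 0.11 ± 0.12 (SE), which was -0.04 without erianin replicate 2. FOXM1 shares 652 bases with ITFG2 on the opposite strand.

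Mitotic kinases and the chromosomal passenger complex had a median of 0.00, with 4 of 7 below 0. PLK1 (chromosome 16, 23677656 to 23690367, plus strand) was at 320.5 and 342 CPM in DMSO, against 346 and 392 CPM in erianin, and AURKB, the kinase of the passenger complex, at 115 and 121 CPM in DMSO, against 123 and 133 CPM in erianin. Neither overlapped between groups, where 21.7% of all genes lay higher without overlap. Their log2 fold changes were 0.16 ± 0.10 and 0.12 ± 0.10 (SE). After the correction they were 0.07 and -0.05, and both genes then overlapped between groups. AURKA, the kinase of spindle poles, had 117, 120.3, 115 and 84.7 CPM, so that its log2 fold change of -0.25 ± 0.15 (SE) came with 1 library well below the other 3. BORA, the cofactor of AURKA, was the highest member at 0.30 ± 0.38 (SE), with 2.03 and 2.29 CPM in DMSO, against 1.76 and 3.58 CPM in erianin. It shares 1050 bases with DIS3 on the opposite strand. The passenger subunits BIRC5 (survivin), INCENP and CDCA8 (borealin) were at 0.00, -0.03 and -0.14.

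Genes of anaphase control and centromere protection had a median of -0.01, with 4 of 7 below 0. CENPF, a large kinetochore protein (chromosome 1, 214603195 to 214664588, plus strand), was at 21.3 and 23.2 CPM in DMSO, against 17.3 and 12.7 CPM in erianin, a log2 fold change of -0.57 ± 0.19 (SE). ESPL1, the separase that cuts cohesin, was at 37.8 and 38.0 CPM in DMSO, against 43.9 and 41.1 CPM in erianin. Both erianin libraries lay above DMSO, as for 21.7% of all genes. Its log2 fold change was 0.17 ± 0.12 (SE), and 0.14 after the correction. CDC20 was at 334 and 353 CPM in DMSO, against 353 and 397 CPM in erianin, with erianin replicate 1 on a level with DMSO replicate 2. UBE2C, PTTG1 and the shugoshins SGO1 and SGO2, which protect centromeric cohesin, ran from -0.32 to 0.11.

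With DESeq2 or upper-quartile factors the medians of the kinase group and of the anaphase group turned to between 0.01 and 0.02, and 7 of 9 motors in place of 8 were below 0. Scaling by library totals alone moved the median of all genes to -0.11 and that of the members to -0.30. Relative to the median of all genes, the median of the members was -0.19 under each of these 4 scalings. The groups of motors, spindle proteins, chromosome proteins and cytokinesis genes had medians at least 0.32 below that of all genes under each scaling. A scaling factor shifts all genes of a library nearly alike, so these gaps agree by construction and are not separate support. After the correction these gaps to all genes were -0.14 for motors, -0.18 for spindle proteins, -0.14 for chromosome proteins and -0.23 for cytokinesis genes. For the remaining groups they were 0.02 (cyclins, CDK1 and phosphatases), -0.01 (transcription factors), -0.04 (kinases) and -0.04 (anaphase). The groups thus lay closer together than before the correction.

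The size of the difference depended on the erianin library. Against the DMSO mean, the members had a median of -0.09 in erianin replicate 1, with 40 of 55 below 0, and of -0.34 in erianin replicate 2, with 41 of 55 below 0. The medians of all genes were -0.01 and -0.03. Cytokinesis genes had medians of -0.20 and -0.60 in erianin replicates 1 and 2, chromosome proteins -0.21 and -0.53, and spindle proteins -0.18 and -0.45. Without erianin replicate 1 the fit passed 24 members, 19 lower and 5 higher, while 17.5% of all genes passed (10.2% lower and 7.3% higher). The remaining erianin library is assumed there to vary as the DMSO libraries do. In that edgeR fit TPX2, which activates AURKA, had a log2 fold change of -0.56. The members that passed as higher were KIF22, MYBL2, PLK1, UBE2C and CDC25B. Without erianin replicate 2 the fit passed 0 members and the median was -0.09. With the replicate number as a block, a pairing that the labels do not state, 5 members passed, while 1.95% of all genes did. Leaving out a DMSO library also passed 0 members, with a median of -0.12 without replicate 1 and of -0.29 without replicate 2.

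Members differed along GC content. Among the 16 members under 40% GC the median log2 fold change was -0.40 and 15 were negative. Among the 12 members from 55% GC upwards it was 0.12 and 4 were negative. Well-counted genes of the whole table (mean log2 CPM 3 or more) had medians of -0.27 and 0.15 in these classes. Between 45% and 50% GC all 9 members were below 0, with a median of -0.30 against -0.10 for well-counted genes there. The medians were -0.35 against -0.23 between 40% and 45% GC, and -0.06 against 0.05 between 50% and 55% GC. Across the 55 members the Spearman correlation of the fold change was 0.63 with GC content, -0.55 with transcript length and 0.58 with DMSO FPKM. GC content and DMSO FPKM go together in the members (Spearman correlation 0.75), and the points share the same 4 libraries. How transcript length goes with either was not computed. After a per-library correction for GC content and transcript length, called trend removal below, the correlation was 0.17 with GC content, -0.37 with length and 0.24 with DMSO FPKM, and the median of the members was -0.12, against -0.01 for all genes, with 41 of 55 below 0. At an unadjusted p under 0.05 there were then 5 members lower (KIF4A, SMC4, KIF2C, CEP55 and TACC3), against 3.15% of all genes, and 0 with an adjusted p under 0.05. KIF4A was at -0.46 ± 0.15, SMC4 at -0.42 ± 0.13 and KIF2C at -0.23 ± 0.08 (SE), the last with nearly the value it had before. Others came closer to 0: CCNB1 to -0.05, ASPM to -0.08, TOP2A to -0.22 and CENPF to -0.24. CDK1 moved to 0.23 and BORA to 0.56, and CDC20, AURKB and MYBL2 crossed to between -0.06 and -0.05. Without erianin replicate 1 as well, 4 members passed (TPX2, AURKA, TACC3 and KIF4A), while 3.63% of all genes did.

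**Figure D3:**
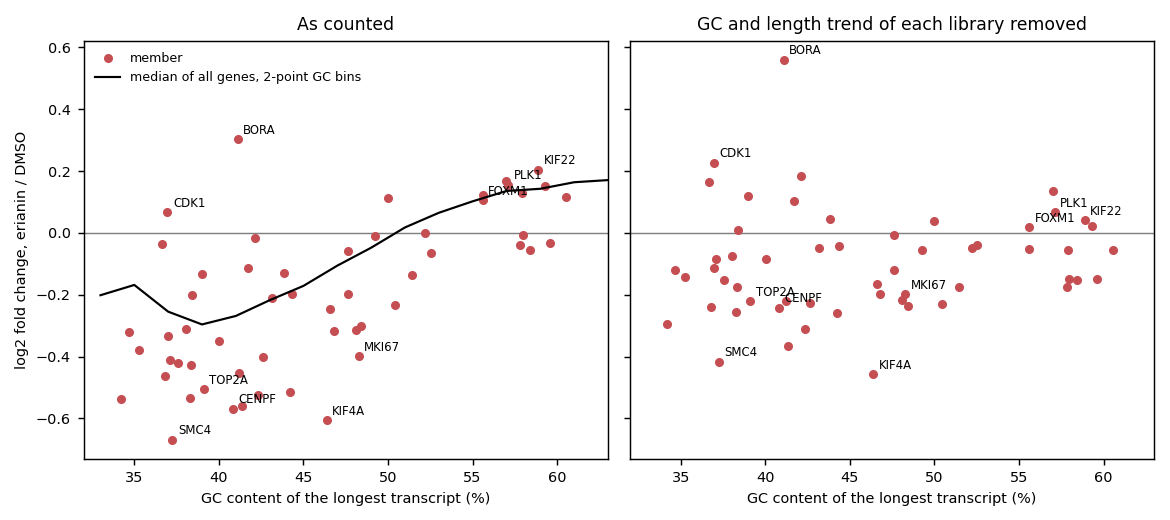
Log2 fold change of each member (red points) against the GC content of its longest transcript, as counted (left, with the median of well-counted genes, mean log2 CPM 3 or more, as a black line) and with the GC and length trend of each library removed (right). On the left the points tend to climb with GC, with scatter. SMC4 is lowest at -0.67, BORA highest at 0.30 and KIF22 is at 0.20. Among the labelled points, CDK1 at 0.07 and BORA lie high for their GC content, and KIF4A at -0.61 lies low. On the right KIF4A and SMC4 are lowest.

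**Figure D4:**
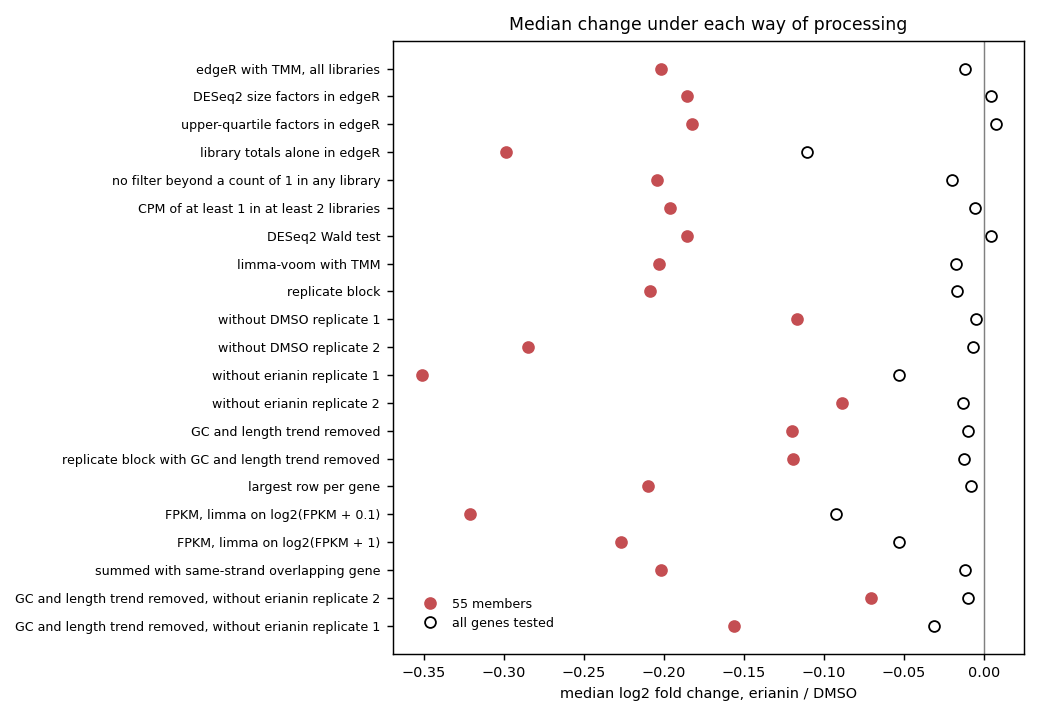
Median log2 fold change of the 55 members (red) and of all genes tested (open circles) under each way of processing. The members' median lies below that of all genes in each of them, between -0.35 without erianin replicate 1 and -0.07 with the trend removed and without erianin replicate 2.

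Other genes of mitosis, 107 in 8 lists, gave 0 with an adjusted p under 0.05 in edgeR's test. At an unadjusted p under 0.05, 15 of 107 were lower and 2 higher, against 5.89% and 2.21% of all genes. Their median was -0.18, with 70 of 107 below 0, and -0.06 with the GC and length trend removed. Cohesin, the ring that holds sister chromatids, and its regulators had a median of -0.48, with 10 of 11 below 0 and 9 lower without overlap, against 24.4% of all genes. Centrosome genes were below 0 in 9 of 9, with a median of -0.43. Both lists were also low with the trend removed, at -0.23 and -0.25. The median of the 26 centromere and kinetochore genes was -0.11, that of the 17 genes of the anaphase-promoting complex -0.03, and that of the 12 abscission and contractile ring genes 0.00. VPS4B, an ATPase of abscission, had 10.2 and 11.2 CPM in DMSO, against 7.25 and 5.40 CPM in erianin, a log2 fold change of -0.76 ± 0.21 (SE). WEE1, the kinase that holds CDK1 inactive, had 7.65 and 9.33 CPM in DMSO, against 5.78 and 5.02 CPM in erianin. HAUS6, of the augmin complex, and PDS5A, a cohesin regulator, were at -0.78 ± 0.24 and -0.54 ± 0.17 (SE). The ubiquitin ligase subunits CDC16 and CDC27 were at -0.61 ± 0.19 and -0.50 ± 0.16 (SE), and the pericentrin gene PCNT at -0.43 ± 0.15 (SE). HAUS7, another augmin subunit, was at 24.4 and 25.0 CPM in DMSO, against 31.9 and 32.2 CPM in erianin, 0.38 ± 0.13 (SE). With the trend removed, VPS4B was at -0.54, HAUS6 and CDC16 at -0.50, PCNT at -0.41 and WEE1 at -0.39. CDC27 was then at -0.24, PDS5A at -0.23 and HAUS7 at 0.19.

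The 9 spindle checkpoint genes left out by the rule had a median of -0.24, with 6 of 9 below 0, and of 0.02 after the correction, with 4 of 9 below 0. The checkpoint kinase BUB1, chosen after its values were seen like TTK, was at 45.3 and 38.4 CPM in DMSO, against 32.9 and 24.4 CPM in erianin, a log2 fold change of -0.55 ± 0.17 (SE) and of -0.33 with the trend removed. The kinase TTK was at 11.6 and 10.3 CPM in DMSO, against 12.6 and 18.9 CPM in erianin, a log2 fold change of 0.53 ± 0.22 (SE), which was 0.80 with the trend removed.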

How the data were processed

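The authors deposited estimated counts, whole numbers in 107429 rows for 25798 gene IDs, and rows were summed per ID. The FPKM values were likewise deposited by the authors, row by row, and were summed per ID. Per the submitters' processing notes, fastp, STAR, StringTie 2.2.1, featureCounts 2.0.1 and GRCh38 were used; their annotation is not given in the sources used here. Members and gene lists were chosen with earlier results of these data known. The plan had assumed counts per gene.

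Counts were tested with edgeR 4.0.16 (R 4.3.3): TMM factors, filterByExpr (minimum count 10), the quasi-likelihood F test on the group, and Benjamini-Hochberg adjustment over 17090 genes. SE was back-calculated from the fold change and F. CPM uses TMM-scaled library sizes. DESeq2 1.42.0, limma 3.58.1, other scalings and filters, omitted libraries and a replicate term were alternatives. Gene positions, GC content and transcript length came from GENCODE release 29. The trend with GC content and length was fitted per library by natural splines (5 df) on genes with mean log2 CPM of at least 3. The main edgeR fit was tested on simulated counts, and the trend removal and the alternative fits were not. Genes given library by library were up to 3 of smallest p per role group with mean log2 CPM of at least 1. CDK1, CCNB1, MKI67, TOP2A, FOXM1, PLK1 and AURKB were always given. Of the 8 of smallest p among the other mitosis genes, VPS4B, WEE1 and HAUS7 were given by library, the rest by fold change. Other members named were picked with their values known.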

Additional observations from a re-analysis of the deposited data

How the results depend on the processing

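The count of all genes past the threshold was 7, and it was 21 with the DESeq2 Wald test, 0 with limma-voom or the largest row per gene, and 2 with library totals alone or with either FPKM test. Leaving out 1 library gave from 24 to 3166 genes and from 0 to 24 members, with members' medians from -0.35 to -0.089 and from 27 to 39 members below DMSO without overlap, a count that a smaller group makes easier by construction. With 1 library left out, the share of all genes below DMSO without overlap was not computed. The 27 to 39 members therefore have no background to be compared with, and nothing is concluded from them. The median of the members was -0.32 on log2(FPKM + 0.1). With the GC and length trend removed, leaving out erianin replicate 2 gave 25 genes and a median of -0.071, and leaving out erianin replicate 1 gave 658 genes and 4 members. These combinations of trend removal with a library left out, and the sums with a same-strand overlapping gene, were chosen after seeing the data.

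Replicate numbers are shared by the groups, but nothing says that they pair the libraries, and 2 pairs are too few to decide it (same-numbered libraries deviated together with a correlation of 0.22 over 7986 genes). With the replicate number as a block, 334 genes and 5 members passed (SMC4, CKAP5, KIF4A, TOP2A and CEP55), and with the block and the trend removed 16 genes and 0 members did.

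Signs turned for CDK1 with library totals (-0.035) and with the largest row per gene (-0.25), and leaving out 1 library gave it from -0.053 (without DMSO replicate 2) to 0.19. With the largest row they also turned for ASPM (0.72), KIF20B (2.74), AURKB (-0.12) and FOXM1 (-0.67). MYBL2 ranged from -0.041 (without erianin replicate 2) to 0.25 when 1 library was left out. With the trend removed AURKB (-0.052), CDC20 (-0.056) and MYBL2 (-0.056) turned, likewise with the block added (-0.053, -0.056 and -0.058). With the trend removed and without erianin replicate 2, AURKB was at -0.0044, CDC20 at -0.051, CDC25B at -0.0065 and MYBL2 at -0.13. With the trend removed and without erianin replicate 1, AURKB was at -0.11 and CDC20 at -0.063. The cause of these turns was not tested. KIF15 had the lowest count of any member, 45 in erianin replicate 2.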
